A study of Homo sapiens with 6 samples.

Results

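The transcripts described here encode 8 enzymes of heme synthesis, namely ALAS1, ALAS2, ALAD, UROS, UROD, CPOX, PPOX and FECH, which were taken by name from the 19330 genes of an RNA-Seq count table. The cells were K562, an established human chronic myelogenous leukemia line with erythroid features, into which Cas9 was delivered by lentivirus together with control sgRNAs (sgCtrl, 3 libraries) or with sgRNAs against N6AMT1 (sgN6AMT1, 3 libraries), the gene of a methyltransferase of the cytosol and nucleus that modifies the translation release factor eRF1. Both conditions went through puromycin selection, and the labels place the analysis at day 10 after infection. The labels name sgRNAs against OR11A1 and OR2M49 as controls, whereas the study's methods name EGFP, or OR11A1 and OR2M4, and the sgRNA of each library is not given in the sources used here. The study describes 3 independent transductions per condition, and neither source says that the cells were clones. The libraries held 742470, 866894 and 866155 counts in sgCtrl replicates 1 to 3 and 959319, 5526904 and 4062363 counts in sgN6AMT1 replicates 1 to 3. The 8 genes together received between 625 and 5617 counts per library. Intervals of single libraries in this text are 95% Wilson intervals and reflect counting error alone. Whether duplicate reads were removed is not given in the sources used here.

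Heme is built in a relay between mitochondria and cytosol. In the mitochondrial matrix, an ALA synthase (ALAS) joins glycine and succinyl-CoA, cytosolic enzymes, among them ALAD, UROS and UROD, then assemble and trim the porphyrin ring, and CPOX, PPOX and FECH complete it back in mitochondria, where FECH inserts iron. Vertebrates have a housekeeping ALAS, encoded by ALAS1, and an erythroid ALAS, encoded by ALAS2. In humans ALAS1 lies on an autosome and ALAS2 on the X chromosome. ALAS2 is controlled in red cell precursors by the transcription factor GATA1 and, at the level of translation, by iron regulatory proteins that bind a hairpin in its mRNA.

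The start regions of both ALAS genes are shown because the isoenzymes gave different values in these libraries. Each sequence holds the 250 bases before the transcription start in the RefSeq annotation of GRCh38.p14, read 5′ to 3′ on the strand of the gene. The ALAS1 window lies at chr3:52197833-52198082 on the plus strand and the ALAS2 window at chrX:55030978-55031227 on the minus strand. Capitals mark GATAA (the core read by GATA factors), CACCC (read by KLF and SP factors) and TGAGTCA (read by the NF-E2 and AP-1 families), searched on both strands.
ALAS1: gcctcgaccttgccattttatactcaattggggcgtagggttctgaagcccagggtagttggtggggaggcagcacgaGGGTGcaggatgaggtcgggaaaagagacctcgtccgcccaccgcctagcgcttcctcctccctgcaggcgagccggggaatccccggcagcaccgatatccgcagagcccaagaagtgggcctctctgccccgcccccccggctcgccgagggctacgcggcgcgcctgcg
ALAS2: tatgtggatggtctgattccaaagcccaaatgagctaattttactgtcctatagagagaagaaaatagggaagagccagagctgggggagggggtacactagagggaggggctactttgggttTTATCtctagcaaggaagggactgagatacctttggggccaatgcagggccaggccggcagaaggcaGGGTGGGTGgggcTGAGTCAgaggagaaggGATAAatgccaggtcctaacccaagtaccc

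The ALAS2 window held GATAA at -127 and -30 (first base of the match, counted from the start), CACCC at -60 and -56, where the matches share a base, and TGAGTCA at -47. The ALAS1 window held a single CACCC, at -172. Over the 35116 windows of this length in the same annotation, GATAA was found in 20.4%, CACCC in 54.7% and TGAGTCA in 4.2%, and 0.518% held all 3. RefSeq windows were found for 7 of the 8 genes, 9 windows in all, since ALAD and PPOX had several starts. Of these 9, 3 held GATAA (ALAS2, CPOX and PPOX), 5 held CACCC and 1 held TGAGTCA. These matches describe letters and not binding, which was not measured.

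The hairpin of the ALAS2 mRNA, the iron-responsive element, is shown because it separates the isoenzymes after transcription. It lies between bases 12 and 34 after the start (chrX:55030944-55030966, minus strand, GRCh38.p14), and capitals mark the first bases of its loop.
ALAS2 element: gttcgtcctCAGTGcagggcaac
CAGTG occurred within the first 50 bases in 6.48% of the annotated starts. The counts below measure RNA and not the translation that this element controls.

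N6AMT1 (chr21:28872191-28885371, minus strand) was read first, as a check of the labels. It received 6, 5 and 9 counts in sgCtrl replicates 1 to 3 and 0, 18 and 16 counts in sgN6AMT1 replicates 1 to 3. Scaled by library total (cpm), the sgCtrl mean was 8.08 ± 2.31 and the sgN6AMT1 mean 2.40 ± 2.10 (SD, n = 3 each), for which an exact permutation test (two-sided) returned p = 0.1, the lowest p of this design. The 0 counts in sgN6AMT1 replicate 1 allow up to 3.13 cpm by the limit used here for a count of 0, which is 3 counts and not a Wilson bound. The values of the conditions did not overlap, in the direction of the labels. The interval of sgCtrl replicate 2, from 2.46 to 13.5 cpm, did overlap those of sgN6AMT1 replicates 2 and 3, from 2.06 to 5.15 and from 2.42 to 6.40 cpm.

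ALAS2, the erythroid enzyme of the first step, rose 3.59-fold in N6AMT1-depleted cells, and it was the only one of the 8 transcripts that passed the test. The log2 fold changes of ALAS1, PPOX, FECH, UROS, UROD and CPOX were smaller in size, and none of them passed. ALAD had too few counts for the reported fit. Genes were compared with edgeR's quasi-likelihood test over all 8324 genes that passed its filter on low counts, and a Benjamini-Hochberg adjusted p under 0.05 was required. Of all genes tested, 9.85% passed in either direction with 5.09% higher and 4.76% lower in sgN6AMT1. Of the 8 enzymes 7 were tested and 1 passed, a share near this background. Values per library are cpm after TMM scaling (TMM cpm).

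ALAS2 (chrX:55009055-55030977, minus strand) had 72.6, 71.5 and 84.9 TMM cpm in sgCtrl replicates 1 to 3. It had 256, 241 and 324 TMM cpm in sgN6AMT1 replicates 1 to 3. The lowest sgN6AMT1 library thus lay far above the highest sgCtrl library, and sgN6AMT1 replicate 1, which was sequenced to the depth of the controls, lay between the 2 deeper ones. The raw counts were 54, 62 and 72 against 243, 1318 and 1261, and the interval of the highest control, from 66.0 to 105 cpm, was separated from that of sgN6AMT1 replicate 1, from 223 to 287 cpm. The mean went from 76.3 ± 7.43 to 274 ± 44.5 TMM cpm (SD, n = 3 each), and the fitted log2 fold change was 1.84 (SE 0.17, 95% interval 1.48 to 2.21, edgeR adjusted p = 6.59e-06). By p-value ALAS2 ranked 3 among the 8324 genes, and 34 by log2 fold change. With sgN6AMT1 replicate 1 alone against the controls, a fit chosen after seeing the data, the log2 fold change was 1.76. Its tests assume that this library varies as the controls do, since 1 library gives no spread. More ALAS2 RNA per cell and more cells with ALAS2 RNA cannot be told apart in bulk libraries.

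ALAS1 (chr3:52198086-52214327, plus strand), the housekeeping enzyme that heme itself represses in many cells, had 39.0, 61.1 and 57.8 TMM cpm in sgCtrl replicates 1 to 3. It had 65.3, 64.8 and 100.0 TMM cpm in sgN6AMT1 replicates 1 to 3. The conditions did not overlap, but sgCtrl replicate 2 and sgN6AMT1 replicate 2 were close, and the log2 fold change of 0.55 (SE 0.23) did not pass (edgeR adjusted p = 0.136). It was 0.29 without sgN6AMT1 replicate 3, the highest library.

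**Figure D1:**
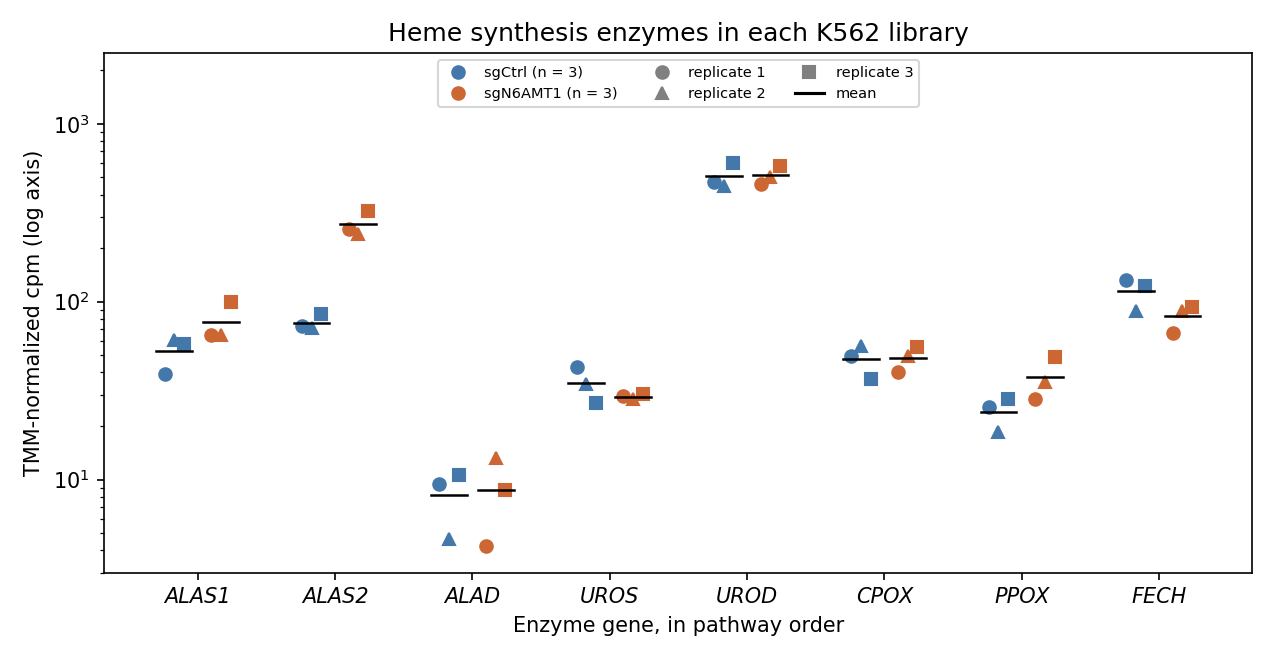
TMM-normalized cpm (log axis) of the 8 enzyme genes in pathway order, with each library as a point (circle, triangle and square for replicates 1 to 3), sgCtrl in blue, sgN6AMT1 in orange and the mean of 3 libraries as a black line. ALAS2 lies from 71.5 to 84.9 in sgCtrl and from 241 to 324 in sgN6AMT1, while UROD lies between 446 and 605 in both.

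The balance of the isoenzymes was also read within each library, where no scaling between libraries is needed. The ratio of ALAS2 to ALAS1 counts, with 1 added to each, was 1.83, 1.17 and 1.46 in sgCtrl replicates 1 to 3. It was 3.87, 3.71 and 3.24 in sgN6AMT1 replicates 1 to 3. Each sgN6AMT1 library exceeded each sgCtrl library. On the log2 scale the means were 0.55 ± 0.33 and 1.85 ± 0.14 (SD, n = 3 each), a difference of 1.30 (exact permutation test, two-sided, p = 0.1, again the lowest p possible).

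**Figure D2:**
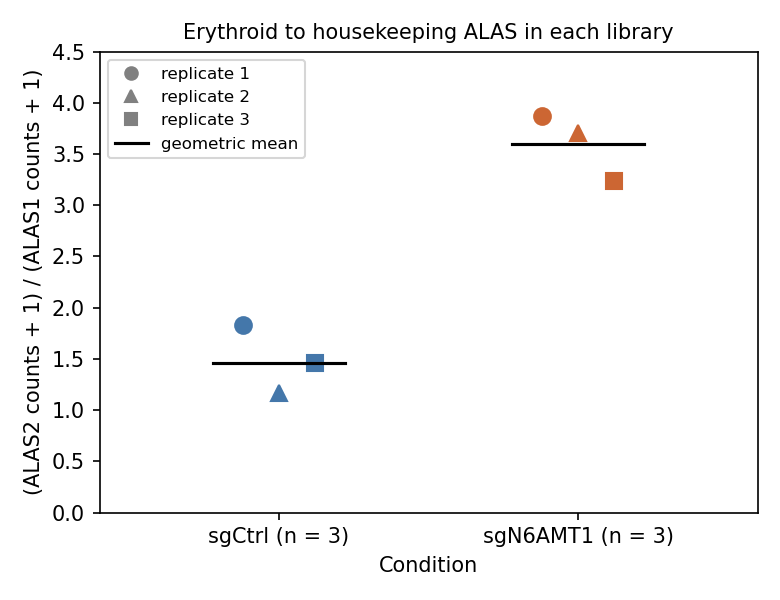
Ratio of ALAS2 to ALAS1 counts (1 added to each; linear axis from 0) in each library, with symbols for replicates and a black line for the geometric mean of 3 libraries. The ratios span 1.17 to 1.83 in sgCtrl and 3.24 to 3.87 in sgN6AMT1.

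The cytosolic enzymes showed no call. ALAD (chr9:113386312-113401290, minus strand), which joins ALA molecules into porphobilinogen, received 7, 4 and 9 counts in sgCtrl and 4, 72 and 34 counts in sgN6AMT1, and it did not pass the filter on low counts. Its TMM cpm were 9.41, 4.61 and 10.6 in sgCtrl and 4.21, 13.1 and 8.74 in sgN6AMT1, with overlapping conditions. Its log2 fold change was 0.16 by DESeq2 (SE 0.61, adjusted p = 0.930) and 0.27 by edgeR without a filter (SE 0.46, adjusted p = 0.795).

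UROS (chr10:125784980-125823258, minus strand), which closes the ring, had 43.0, 34.6 and 27.1 TMM cpm in sgCtrl replicates 1 to 3. In sgN6AMT1 it had 29.5, 28.3 and 30.1 TMM cpm, all within the range of the controls, and the log2 fold change of -0.25 had a 95% interval from -0.78 to 0.28 (edgeR adjusted p = 0.582). It was -0.46 after the GC and length correction and -0.08 without sgCtrl replicate 1, neither of which passed. UROD (chr1:45010950-45015575, plus strand), which removes carboxyl groups from the ring's side chains, had 469, 446 and 605 TMM cpm in sgCtrl. In sgN6AMT1 it had 456, 505 and 577 TMM cpm. The UROD ranges coincided almost entirely, and the log2 fold change of 0.02 had a 95% interval from -0.31 to 0.35 (edgeR adjusted p = 0.953). UROD shares 375 exonic bases with HECTD3, which lies on the other strand. The study's libraries were stranded, but whether the counting used the strand is not given in the sources used here. The HECTD3 means were 47.7 ± 18.0 TMM cpm for sgCtrl and 54.0 ± 10.5 for sgN6AMT1 (SD, n = 3 each).

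The last 3 enzymes act in mitochondria, and none of them passed. CPOX (chr3:98579446-98593648, minus strand), of the intermembrane space, had 49.7, 56.5 and 36.5 TMM cpm in sgCtrl and 40.0, 49.3 and 55.8 in sgN6AMT1. The libraries of the conditions were interleaved, and the log2 fold change was 0.05 with a 95% interval from -0.42 to 0.53 (edgeR adjusted p = 0.913). CPOX shares 163 exonic bases with ENSG00000285635 on the same strand, where use of the strand in counting would not separate the genes.

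PPOX (chr1:161166056-161178013, plus strand), which oxidizes protoporphyrinogen, had 25.5, 18.5 and 28.3 TMM cpm in sgCtrl replicates 1 to 3. It had 28.5, 35.4 and 48.8 TMM cpm in sgN6AMT1 replicates 1 to 3. The highest sgCtrl and the lowest sgN6AMT1 library nearly met, and their intervals, 18.6 to 41.2 and 19.3 to 41.0 cpm, coincided. The log2 fold change of 0.69 (SE 0.28) did not pass (edgeR adjusted p = 0.129), and it was 0.46 after a correction for GC content and transcript length, 0.45 without sgN6AMT1 replicate 3 and 0.25 with sgN6AMT1 replicate 1 alone. PPOX shares 1118 exonic bases with B4GALT3 on the other strand, which averaged 81.0 ± 3.27 TMM cpm for sgCtrl and 86.1 ± 11.2 for sgN6AMT1 (SD, n = 3 each; log2 fold change 0.08, edgeR adjusted p = 0.822).

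FECH (chr18:57544377-57586732, minus strand), the ferrochelatase, acts last in the pathway. It had 132, 88.8 and 123 TMM cpm in sgCtrl replicates 1 to 3. It had 66.4, 88.3 and 93.6 TMM cpm in sgN6AMT1 replicates 1 to 3. The libraries of replicate 2 were nearly equal between the conditions, and sgN6AMT1 replicate 3 lay above sgCtrl replicate 2. The log2 fold change of -0.43 (SE 0.19, 95% interval -0.83 to -0.03) did not pass (edgeR adjusted p = 0.156). It was -0.77 with sgN6AMT1 replicate 1 alone, -0.60 without sgCtrl replicate 2 and -0.33 after the GC and length correction, none of which passed.

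**Figure D3:**
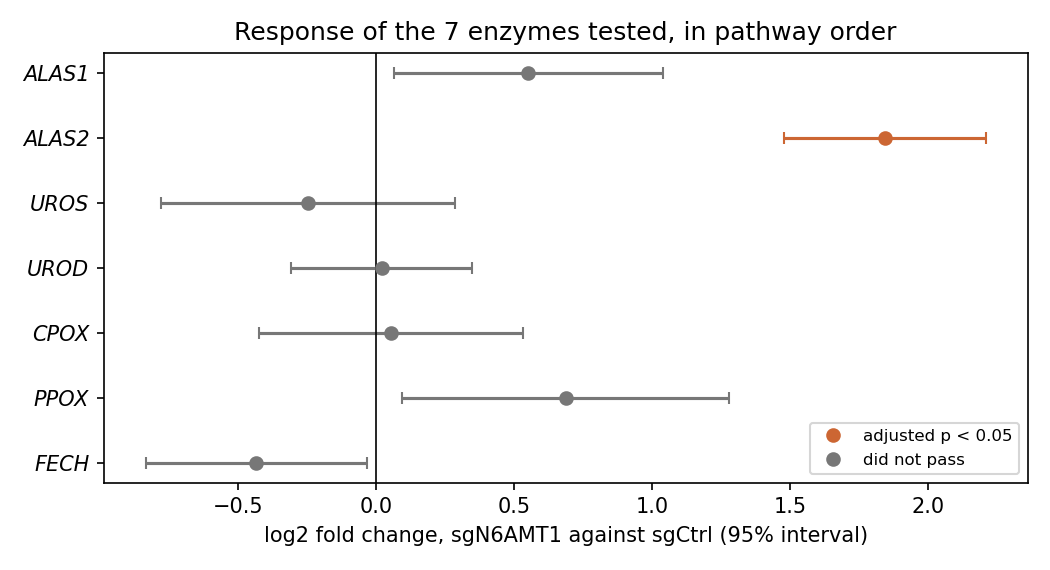
log2 fold change of sgN6AMT1 against sgCtrl with its 95% interval for the 7 enzymes tested, in pathway order from top to bottom, orange where the adjusted p passed. ALAS2 stands at 1.84, and the other 6 lie between -0.43 and 0.69.

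Among the 7 enzymes tested, 5 log2 fold changes were positive and 2 negative, with a median of 0.05 against 0.01 over all genes tested. Unadjusted p-values were under 0.05 for 4 (ALAS1, ALAS2, PPOX and FECH), against 26.2% of all genes. The conditions did not overlap for 3 (ALAS1, ALAS2 and PPOX), against 29.2% of all genes. The mean of the summed TMM cpm of the 8 genes went from 865 ± 97.6 to 1070 ± 151 (SD, n = 3 each). The conditions overlapped, with 973 in sgCtrl replicate 3 and 946 in sgN6AMT1 replicate 1. Without ALAS2 the mean sums were 789 ± 90.4 and 796 ± 112, so that most of the difference between the mean sums lay in ALAS2.

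Levels of different enzymes were compared per kb of the canonical transcript in GENCODE v44. In sgCtrl, UROD had 425 ± 71.8 TMM cpm per kb, ALAS2 39.3 ± 3.83, UROS 26.1 ± 5.95 and ALAS1 22.2 ± 5.03 (SD, n = 3 each). CPOX followed with 17.6 ± 3.75 TMM cpm per kb, FECH with 14.9 ± 2.94, PPOX with 13.9 ± 2.93 and ALAD with 2.62 ± 1.01. UROD, ALAS2 and ALAD were separated from their neighbours in this order in all 3 sgCtrl libraries, while the ranges of UROS and ALAS1, ALAS1 and CPOX, CPOX and FECH, and FECH and PPOX overlapped. In sgN6AMT1, ALAS2 reached 141 ± 22.9 TMM cpm per kb, and its share of the per-kb sum of the 8 genes was 20.8 ± 1.49% against 7.03 ± 0.24% in sgCtrl. UROD made up 75.4 ± 2.80% of this sum in sgCtrl and 63.5 ± 1.55% in sgN6AMT1. With the union of all annotated exons as length, UROS stood at 3.67 TMM cpm per kb in sgCtrl, below PPOX at 5.10, while UROD (126) and ALAS2 (37.3) were again the highest. With these lengths the sgN6AMT1 libraries had 125, 118 and 158 TMM cpm per kb for ALAS2 and 113, 125 and 143 for UROD, so that ALAS2 lay above UROD in replicates 1 and 3 and below it in replicate 2. The shares also depended on the lengths used. With the union of exons ALAS2 made up 16.996 ± 0.236% of the sum in sgCtrl and 40.9 ± 2.16% in sgN6AMT1, and UROD 57.0 ± 3.20% and 39.1 ± 1.86% (SD, n = 3 each).

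The genes whose values over the 6 libraries were most like each of the 7 tested enzymes were found by the root mean square difference of centred log2 TMM cpm, among genes with a mean of at least 50 TMM cpm. For ALAS2 these were PIK3CG (0.23), GMPPA (0.25) and ATP6V0B (0.26), with log2 fold changes between 1.41 for PIK3CG and 1.497 for ATP6V0B. For ALAS1 they were PFKM (0.10), SLC5A6 (0.10) and GPAA1 (0.11), for PPOX TMEM219 (0.06), YDJC (0.07) and COX8A (0.08), and for FECH ITCH (0.09), PDXK (0.11) and HIST2H2AB (0.11). For UROS they were FANCA (0.07), MRPL4 (0.07) and FAT1 (0.08), for UROD CDK2 (0.04), CAPN1 (0.05) and KARS (0.05), and for CPOX CLASP1 (0.05), POLE (0.05) and GON4L (0.06).

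Genes that supply, move, sense or use heme were read from 5 further lists. Their counts of calls stand against the 9.85% of all genes that passed, and their counts of unadjusted p under 0.05 against 26.2% of all genes. The unadjusted counts were 4 of 12 for mitochondrial transport, 3 of 8 for succinyl-CoA and glycine, 1 of 5 for export, import and breakdown, 3 of 12 for regulators and 8 of 14 for users of heme. Among the mitochondrial transport genes 1 of 12 tested fell and 0 rose, near this background. Of 14 listed genes for the transport of heme, its precursors and iron at the mitochondrion, the 12 tested had a median log2 fold change of 0.18. PGRMC2, a heme chaperone, had 30.9, 23.1 and 27.1 TMM cpm in sgCtrl and 17.9, 7.12 and 3.60 in sgN6AMT1 (log2 fold change -1.84, SE 0.43, edgeR adjusted p = 0.0132). Its raw counts were low, at 23, 20 and 23 against 17, 39 and 14. PGRMC2 was not called without sgCtrl replicate 1, without sgCtrl replicate 2 or without sgN6AMT1 replicate 2. SLC25A38, the mitochondrial glycine carrier that feeds ALAS, had 57.8, 55.4 and 48.3 TMM cpm in sgCtrl and 80.1, 75.4 and 88.7 in sgN6AMT1, without overlap (log2 fold change 0.60, edgeR adjusted p = 0.0547). SLC25A39, the mitochondrial glutathione carrier, had 197 ± 29.4 and 276 ± 27.7 TMM cpm (log2 fold change 0.50, edgeR adjusted p = 0.05001, just above the threshold). Both carriers passed with the replicate block and with at least 10 counts in every library, and SLC25A39 also without a filter, without mt-DNA-encoded genes, with thinned libraries and without sgN6AMT1 replicate 1. SLC25A37, the iron importer mitoferrin, had a log2 fold change of 0.18 and ABCB10 of 0.29, neither of which passed.

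For the supply of succinyl-CoA and glycine, 8 of 8 genes were tested, with a median log2 fold change of -0.27. OGDH, which makes succinyl-CoA, had 140, 114 and 103 TMM cpm in sgCtrl and 72.7, 82.7 and 74.3 in sgN6AMT1. It fell by 0.62 on the log2 scale (SE 0.18, edgeR adjusted p = 0.0326), and the other 7 did not pass, so that 1 of 8 was called, near the 9.85% of all genes. With single libraries left out, OGDH was called only in the fit without sgCtrl replicate 3.

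Among 9 genes for heme export, import and breakdown, 5 were tested and 0 passed in the edgeR fit to all libraries, while 1 (BLVRA, a biliverdin reductase) had an unadjusted p under 0.05, against 26.2% of all genes (log2 fold change 0.60, edgeR adjusted p = 0.101) and 0 passed in DESeq2. BLVRA was called in edgeR without sgN6AMT1 replicate 3. The heme oxygenase HMOX2 had 73.9 ± 10.2 and 59.6 ± 11.0 TMM cpm, and HMOX1 was listed at 0 counts in all 6 libraries.

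Of 15 listed regulators of ALAS and heme sensors, 12 were tested and 0 passed in that fit or in DESeq2, while 3 (BACH1, IREB2 and TAL1) had an unadjusted p under 0.05, near the 26.2% of all genes. GATA1, which activates ALAS2 in erythroid cells, had 140, 128 and 71.9 TMM cpm in sgCtrl and 96.9, 114 and 118 in sgN6AMT1, with overlap and a log2 fold change of -0.03 (edgeR adjusted p = 0.945). KLF1 had a log2 fold change of 0.04 (edgeR adjusted p = 0.936). TAL1, a partner of GATA1, had 40.3, 11.5 and 18.9 TMM cpm in sgCtrl and 37.9, 46.9 and 52.4 in sgN6AMT1 (log2 fold change 1.02, edgeR adjusted p = 0.05035), and it passed in several alternatives, among them the replicate block and the thinned libraries. The iron regulatory proteins that bind the hairpin shown above are encoded by ACO1, with a log2 fold change of 0.18, and IREB2, with 117 ± 16.6 and 87.0 ± 8.09 TMM cpm (SD, n = 3 each) and a log2 fold change of -0.43 (edgeR adjusted p = 0.122). CLPX, which acts on ALAS in the matrix, had a log2 fold change of -0.17 (edgeR adjusted p = 0.557). After the GC and length correction NFE2 was called, with and without the replicate block, and BACH1 and LONP1 were called with the correction and the block together.

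The list of users of heme held 18 genes, among them genes such as CYB5R3 that are linked to heme proteins. Of these, 14 were tested, 3 rose (2 with HBG1 and HBG2 taken as 1) and 1 fell, against 5.09% of all genes that rose and 4.76% that fell. The 3 were the embryonic and fetal globins HBE1, HBG1 and HBG2. HBE1 went from 1123 ± 184 to 2075 ± 349 TMM cpm (SD, n = 3 each; log2 fold change 0.89, edgeR adjusted p = 0.00414) with no overlap, and the log2 fold change of HBG1 was 1.04 (edgeR adjusted p = 0.0149) with overlapping conditions. HBG1 and HBG2 are nearly identical and their reads cannot be assigned with certainty, so that their calls are not independent, and neither was called with DESeq2. Reads were uncertain in the same way for HBA1 and HBA2, at 0.05 each. HBZ, the embryonic alpha-like globin, had a log2 fold change of -0.39 (edgeR adjusted p = 0.116), and it was called after the GC and length correction, with and without the replicate block. CYC1, the cytochrome c1 of respiratory complex III, did not pass (log2 fold change 0.53, edgeR adjusted p = 0.0637), but was called with the replicate block, without a filter, without sgCtrl replicate 3 and without sgN6AMT1 replicate 1, and CYB5R3 was called with the GC and length correction and the block together. The gene that fell was CAT, the heme enzyme catalase, with 230 ± 33.9 and 149 ± 25.8 TMM cpm and a log2 fold change of -0.62 (edgeR adjusted p = 0.0279). CAT was not called without sgCtrl replicate 1, without sgCtrl replicate 3 or without sgN6AMT1 replicate 2.

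The 58 distinct genes tested in the 6 lists around heme thus gave 7 calls (6 with HBG1 and HBG2 taken as 1), against 9.85% of all genes. With the replicate block there were 11 (10 with that pair taken as 1), against 14.4% of all genes in that fit. Both shares were near the background. Without sgCtrl replicate 2 the calls were 2 (ALAS2 and CAT), and without sgCtrl replicate 1 they were 3 (ALAS2, HBE1 and TAL1). Without sgN6AMT1 replicate 2 they were 4 (ALAS2, HBE1, HBG1 and HBG2). Of the 7, only ALAS2 was called in each of these 3 fits, and each of the other 6 was lost in at least 1 of them.

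**Figure D4:**
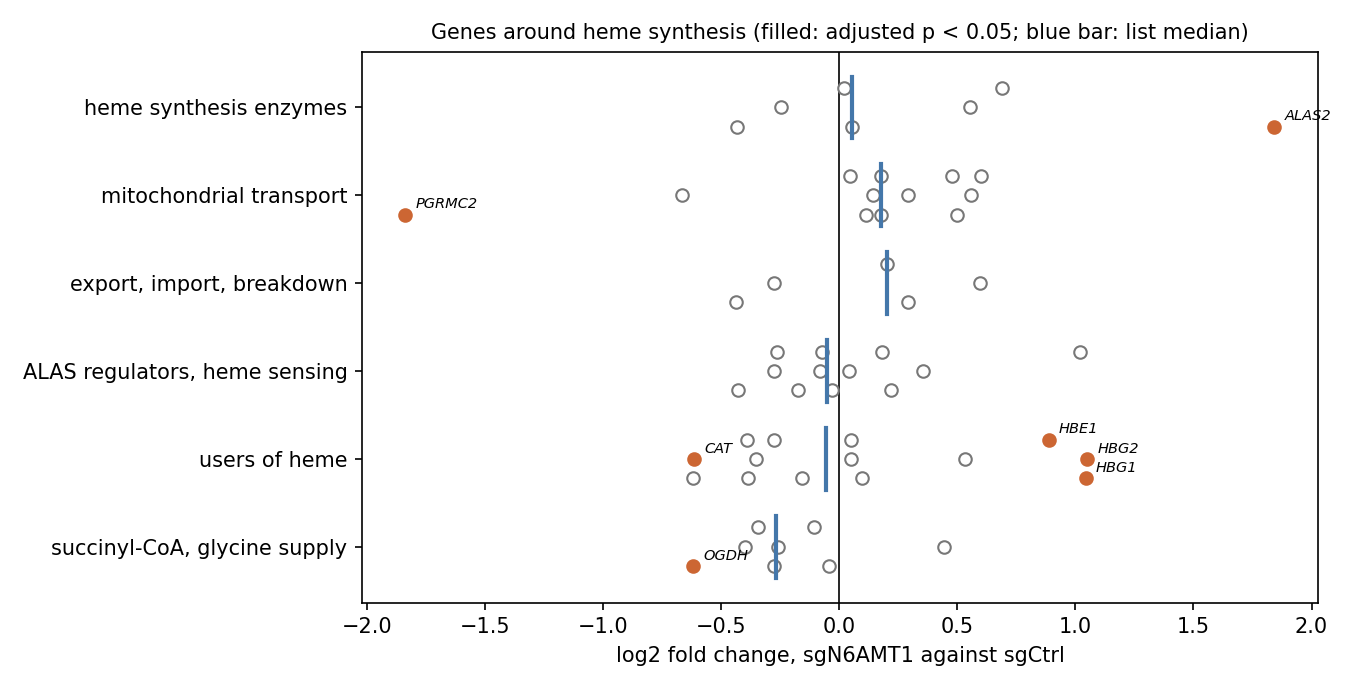
log2 fold change of sgN6AMT1 against sgCtrl (horizontal axis) for each tested gene of the 6 lists around heme, filled in orange and named where the adjusted p passed, with a blue bar for the median of each list. ALAS2 lies farthest to the right at 1.84 and PGRMC2 farthest to the left at -1.84, and the medians lie between -0.27 and 0.20.

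Markers of the cell type were read beside these values. Of the erythroid markers listed for K562, 11 were tested, of which HBE1 and the near-identical pair HBG1 and HBG2 rose, against 5.09% of all genes, and the other 8 did not pass. TFRC, the transferrin receptor, had a log2 fold change of -0.25. Of 7 monocyte or macrophage markers 2 were tested, and LYZ rose from 30.8 ± 10.3 to 54.1 ± 10.5 TMM cpm (SD, n = 3 each; log2 fold change 0.83, edgeR adjusted p = 0.0489). The 7 together had 41.7, 43.8 and 41.3 TMM cpm in sgCtrl and 70.6, 98.7 and 93.3 in sgN6AMT1, with LYZ the most abundant, CD163 at 0 counts, and 3 counts for CD14 over all libraries. CD68, a lysosomal protein, had 20.2, 6.92 and 4.72 TMM cpm in sgCtrl and 21.1, 24.1 and 24.9 in sgN6AMT1, without overlap (log2 fold change 1.205, edgeR adjusted p = 0.0626). ITGAM, an integrin of myeloid cells, received 0 counts in each sgCtrl library and 5, 55 and 50 counts in sgN6AMT1 (5.27, 10.0 and 12.9 TMM cpm), and did not pass the filter. No megakaryocyte marker of 8 passed the filter, and GP1BA, GP9 and PF4 were at 0 counts. The 5 granulocyte markers together had 0 TMM cpm in the 3 sgCtrl libraries and between 1.83 and 3.16 in sgN6AMT1. A count of 0 in sgCtrl allows 3.46 to 4.04 cpm, so that no difference can be read from these values. The 5 liver markers together had 0, 1.15 and 0 TMM cpm in sgCtrl, where a count of 0 allows up to 4.04 cpm, and between 5.27 and 6.39 in sgN6AMT1, with ALB the most abundant and SERPINA1 at 0 counts. Of the lymphocyte markers, CD3D was tested (log2 fold change 0.11) and MS4A1 was at 0 counts. The part of these other markers in the ALAS2 result was not tested.

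**Figure D5:**
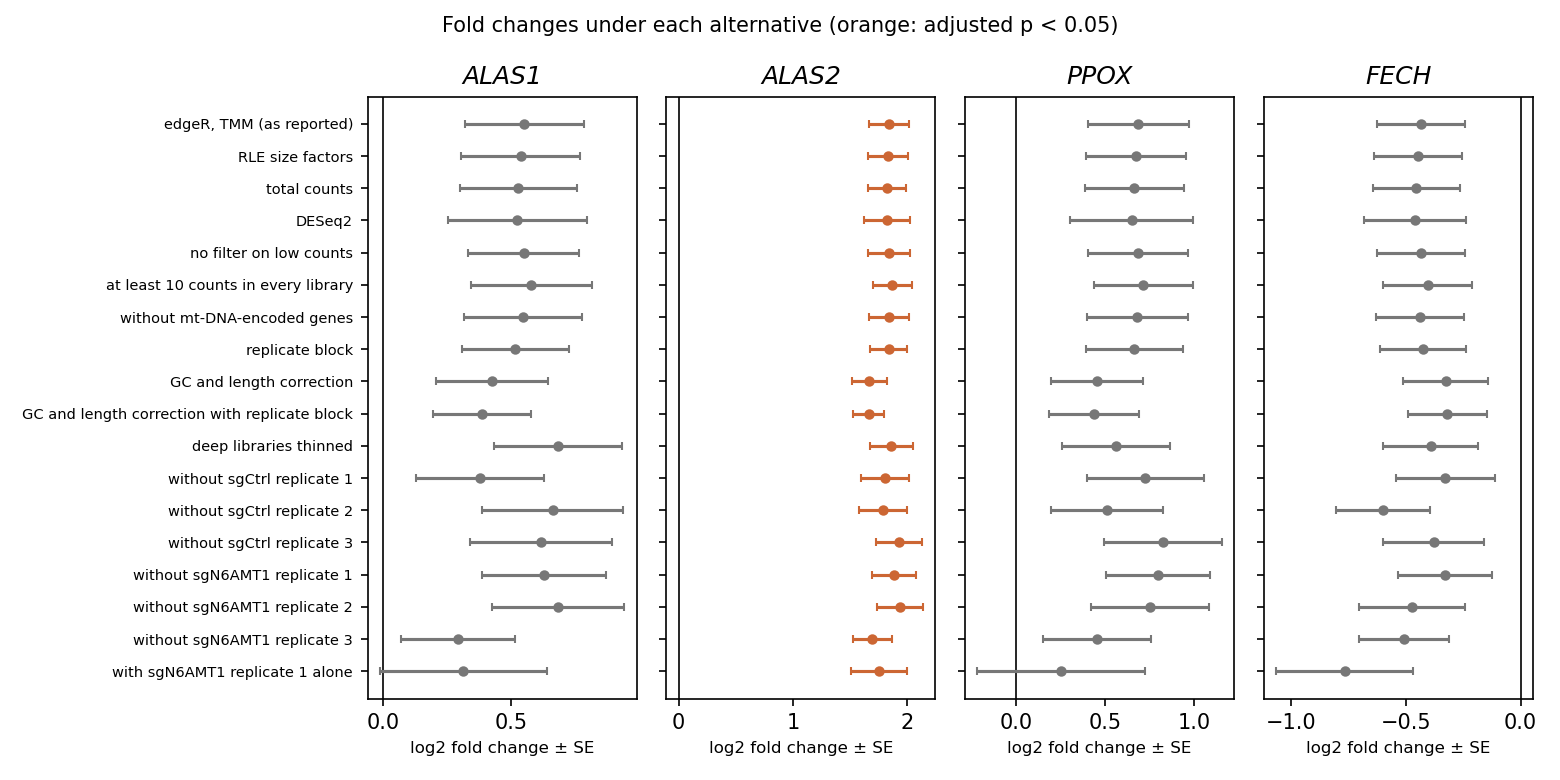
log2 fold change ± standard error (horizontal axes, which differ between panels) of ALAS1, ALAS2, PPOX and FECH under the reported fit (top) and each alternative, orange where the adjusted p passed. ALAS2 stays between 1.66 and 1.94 and passes in every fit shown, and ALAS1, PPOX and FECH pass in none.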

How the data were processed

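The authors trimmed reads with cutadapt (minimum length 15, quality cutoff 2), mapped them with HISAT2 to GRCh38 and overlapped them with the genes of release 84, and they deposited a raw count per gene and library without normalization. The tool that counted, its use of the strand and its handling of reads with several positions are not given in the sources used here. PolyA RNA is the molecule in the labels, whereas the study describes total RNA after rRNA depletion.

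From the counts, edgeR 4.0.16 (R 4.3.3) was run over the 6 libraries without covariates (filterByExpr, TMM, glmQLFit, then glmQLFTest). Benjamini-Hochberg adjustment covered all 8324 genes tested, and the standard error was taken as the log2 fold change over the root of the F statistic. Of the symbols, 18866 matched GENCODE v44 (882 through an older name), which gave positions, lengths and GC content. Named are the 8 enzymes, called genes of the lists with examples by abundance, and the 3 genes most like each enzyme; other genes were added after their values were seen. Some genes of the lists are not reported here and were left out of their counts. The members and lists were chosen with earlier results of these data known. Alternatives were DESeq2 1.42.0, other scalings and filters, a replicate block, a GC and length correction (mgcv 1.9.3), thinning to 866524 counts and each library left out. On simulated counts the calls comprised 98 of 98 genes with a log2 change of 2, 76 of 96 with a change of 1 and 11 of 8126 unchanged genes. The simulated counts had a single dispersion for all genes and no replicate effects, so that these shares need not hold for the real libraries.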

Additional observations from a re-analysis of the deposited data

How the results depend on the processing

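ALAS2 passed in all 17 alternatives, with log2 fold changes between 1.66 and 1.94 and an edgeR or DESeq2 adjusted p of at most 4.21e-04, and it was the only one of the 8 enzymes called in each. Leaving out single libraries gave 1.69 to 1.94 for ALAS2, and 1.14 to 1.46 for the log2 difference of the ALAS2 to ALAS1 ratio. ALAS1, PPOX, FECH and UROS held their direction and did not pass. UROD turned to -0.0010 with DESeq2, -0.18 with the GC and length correction, -0.17 with that and the replicate block, and -0.14 with sgN6AMT1 replicate 1 alone, a fit chosen after seeing the data. CPOX turned to -0.020 with thinned libraries and -0.24 with replicate 1 alone. With single libraries left out, UROD ran from -0.072 to 0.17 and CPOX from -0.11 to 0.19. The cause of these turns was not tested, and none of the values passed.

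Over the whole table, 820 genes passed, 51.7% of them higher, and single libraries left out gave 220 (without sgCtrl replicate 2) to 951 (without sgN6AMT1 replicate 1), with 301 without sgCtrl replicate 1, 495 without sgN6AMT1 replicate 2 and 538 without sgN6AMT1 replicate 3. With replicate 1 alone 122 passed, where fewer libraries entered, and with the GC and length correction and the replicate block 1388, 40.6% of them higher. Calls in the lists around heme were 7 in the reported fit, 5 with DESeq2, 11 with the replicate block, 13 with the GC and length correction and the replicate block, 1 with replicate 1 alone, and 2 to 9 with single libraries left out. The median level per kb of the 8 enzymes in sgCtrl was 19.9 TMM cpm with canonical transcripts and 12.7 with the union of exons, which is longer by construction. Whether replicate numbers pair the libraries is not settled. Deviations from the group means correlated at -0.00052, 0.083 and 0.19 for same-numbered libraries, and from -0.19 to 0.14 for differently numbered ones. With so few libraries the deviations within a group are tied to each other, so that these correlations cannot decide it. The replicate block gave 1195 calls and 1.84 for ALAS2, and called no other of the 8 enzymes. Depth limits ALAD, with 130 counts over all libraries.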
